A study of Mus musculus with 6 samples.

Results

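The genes described here encode the proteins of the cytosolic ribosome. They were chosen as protein-coding genes whose symbol is Rpl, Rps or Rplp followed by a protein number and, for some, a paralog letter, and genes on the sex chromosomes were left out. This gave 78 genes of 36047, of which 48 were large subunit (Rpl) and 30 small subunit (Rps) genes. The pattern also fitted 4 genes on the sex chromosomes, which were left out. RNA was taken from the infarct area of hearts of C57BL6 mice aged 12 weeks, 48 h after ischemia/reperfusion, an occlusion of a coronary artery that is then reopened. In 3 animals LGK-974 (LGK974 in the sample labels) was given, and 3 animals received DMSO, its solvent. All 6 animals had the same injury, and uninjured or untreated hearts were not analysed here. LGK-974 is a small molecule that inhibits Porcupine, the enzyme that adds the lipid that Wnt proteins need for secretion. The comparison asked how the transcriptome of the infarct area differs when Wnt secretion is blocked. Infarct tissue is a mixture of cells, so that fewer cells of a type and less RNA per cell cannot be told apart.

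The ribosome is built from ribosomal RNA and a set of proteins that are needed in nearly equal amounts, and cells make these proteins together. Many of their mRNAs begin with a run of pyrimidines, the 5′ terminal oligopyrimidine tract, through which growth signals (mTORC1) control their translation. Some members have a paralog with a more restricted expression. Rpl3l takes the place of Rpl3 in ribosomes of heart and skeletal muscle, and Rpl10l and Rpl39l are known from male germ cells.

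Sequences at the annotated start of transcription are shown first, for members at both ends of the order of change described below, for Rpl28, which is among the highest by level, and for a germ cell paralog. They are the 20 bases before and the 20 bases from the start in RefSeq's annotation of GRCm38.p6, written 5′ to 3′ on the strand of the gene. Capitals mark a run of at least 8 bases that holds only C and T and lies at or within 5 bases of the start.
Rps6, chr4:86857348-86857387, minus strand: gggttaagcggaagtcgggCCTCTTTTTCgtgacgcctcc
Rpl27a, chr7:109519175-109519214, plus strand: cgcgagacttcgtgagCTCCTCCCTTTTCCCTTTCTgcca
Rps26, chr10:128626487-128626526, minus strand: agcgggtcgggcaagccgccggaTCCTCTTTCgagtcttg
Rpl28, chr7:4792945-4792984, plus strand: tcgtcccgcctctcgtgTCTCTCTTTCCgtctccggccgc
Rps27, chr3:90213629-90213668, minus strand: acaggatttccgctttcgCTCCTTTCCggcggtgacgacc
Rps19, chr7:24884572-24884611, plus strand: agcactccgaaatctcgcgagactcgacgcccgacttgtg
Rps28, chr17:33824543-33824582, minus strand: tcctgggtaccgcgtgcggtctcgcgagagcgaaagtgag
Rpl3l, chr17:24727806-24727845, plus strand: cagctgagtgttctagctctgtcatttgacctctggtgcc
Rpl10l, chr12:66284382-66284421, minus strand: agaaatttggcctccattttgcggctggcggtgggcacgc
Rps6, Rpl27a, Rps26, Rpl28 and Rps27 have the tract, whereas the starts shown of Rps19, Rps28, Rpl3l and Rpl10l do not.

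RefSeq promoter windows, 250 bases before to 50 bases after a start, matched 58 of the 78 members with 70 starts. The tract lay at the start of 24 of these 58 members. Counted over windows, it was present in 34.3% of the members' windows and in 9.72% of all 32851 windows. The letters CCGGAAG, the core bound by factors of the ETS family, were found on either strand in 35.7% of the members' windows and in 8.86% of all windows. On the opposite strand these letters read as pyrimidines followed by GG, so that such a match can overlap a tract. The palindrome CTCGCGAG was found in 11.4% against 0.919%, among them the windows of Rps19 and Rps28. These matches describe the letters in the windows and no binding was measured.

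The libraries held 41579787 to 80398211 estimated counts. Genes of the mitochondrial chromosome took 28.2 to 53.7% of them with LGK-974 and 39.3 to 42.8% with DMSO, which lowers the share left for all nuclear genes to a different extent in each library. The cardiomyocyte markers (15 genes) summed to 14367 to 22556 TPM with LGK-974 and 12411 to 22854 TPM with DMSO, so that heart muscle RNA was present in every library. DMSO replicate 1 stood apart in the receptor genes of smell, pheromone and bitter taste, chosen by symbol as families with little expected use in heart. They took 19941 CPM (counts scaled to library totals) there and 2945 to 6987 in the other libraries. The counts and medians of the ribosomal protein genes, and the changes of several members, are therefore also given without DMSO replicate 1.

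Most ribosomal protein genes lay higher in the LGK-974 libraries, by about the same small amount, but no member passed the test after adjustment. With LGK-974, the members took 1.83%, 1.72% and 1.94% of the counts of nuclear genes in replicates 1, 2 and 3. With DMSO they took 0.869%, 1.52% and 1.51%. All 3 LGK-974 libraries lay above all 3 DMSO libraries, and DMSO replicate 1 lay farthest below. The means were 1.83% ± 0.108 (SD, n = 3) and 1.30% ± 0.376 (SD, n = 3), a difference of 0.531 percentage points. Leaving out each library in turn gave differences of 0.314 to 0.642 percentage points, the smallest without DMSO replicate 1. As a share of all counts, mitochondrial ones included, the groups overlapped, with 1.04%, 0.798% and 1.39% against 0.527%, 0.881% and 0.866%.

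Per gene, the level was set against the mean of that gene over the 6 libraries on the log2 scale. The median of the 76 members tested lay at 0.14, 0.13 and 0.22 in LGK-974 replicates 1, 2 and 3. It lay at −0.50, 0.04 and 0.01 in DMSO replicates 1, 2 and 3. DMSO replicate 1 was thus far below every other library, and DMSO replicates 2 and 3 lay closer to the LGK-974 libraries than to it. Of the members tested, 69 had their lowest level in CPM (counts scaled to library size with edgeR's TMM factors) in DMSO replicate 1, and 72 had their highest in an LGK-974 library, 42 of them in replicate 3. The 7 members whose lowest library was another were Rpl21, Rpl22l1, Rpl3l, Rpl5, Rps12, Rps27 and Rps27l.

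**Figure D1:**
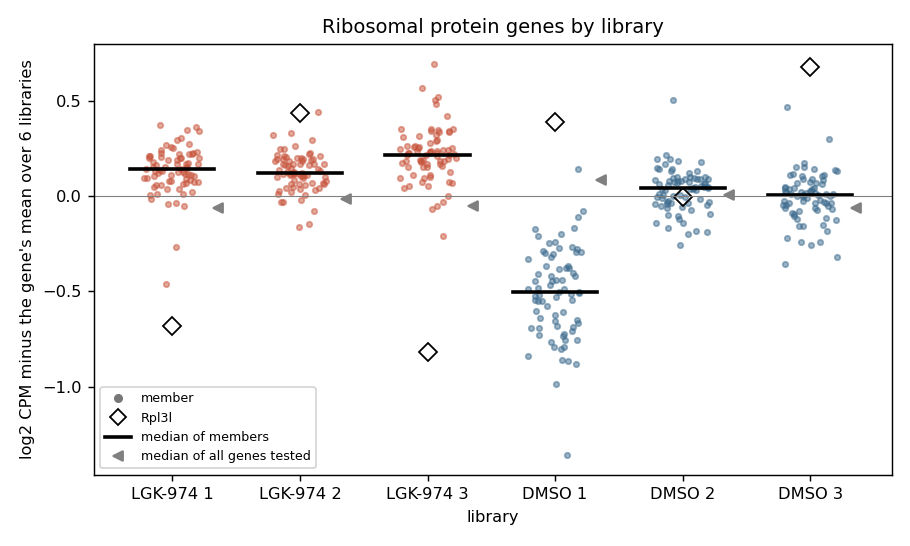
Level of each of the 76 ribosomal protein genes tested in each library, as log2 CPM minus the gene's mean over 6 libraries; dots are genes, open diamonds Rpl3l, black bars the median of the members and grey triangles the median of all genes tested. The members' median lies at 0.14, 0.13 and 0.22 in the LGK-974 libraries and at −0.50, 0.04 and 0.01 in the DMSO libraries, while Rpl3l runs apart from the rest.

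The test was edgeR's quasi-likelihood test over 20094 genes with Benjamini-Hochberg adjustment. At an adjusted p under 0.05, 0 of the 76 members were called, as were 0% of all genes, and the lowest adjusted p of a member was 0.368. At an unadjusted p under 0.05, 2 members (Rps27l and Rps19) were higher with LGK-974 and 0 were lower, where 6.26% of all genes tested were higher and 7.18% lower. The members' share past this threshold, 2 of 76, did not exceed the background. DESeq2, run without edgeR's count minimum, also called 0 members, with a lowest adjusted p of 0.122. It called 1.22% of the 23595 genes to which it gave an adjusted p. At an unadjusted p under 0.05 in DESeq2, 10 of 78 members were higher, against 3.64% of 34193 genes. In the other direction 1 (Rpl10l) was lower, against 9.46%. These 34193 genes include those below edgeR's count minimum, so their shares are not a background of genes with levels like the members'.

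What the members shared was their direction. In 74 of 76 the fitted log2 fold change was above 0, against 40.5% of all genes tested. In 37 of 76 every LGK-974 library lay above every DMSO library, against a background of 10.7%, and in 0 every LGK-974 library lay below, against 7.27%. The large subunit gave 23 of 46 and the small subunit 14 of 30. Compared with DMSO replicates 2 and 3 alone, 38 of 76 members were higher in every LGK-974 library, against 15.1% of all genes, and 2 (Rpl27 and Rps28) were lower in every LGK-974 library, against 12.6%. Members rise and fall together between libraries, so these counts are not independent observations.

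The median log2 fold change of the members was 0.30, with quartiles of 0.25 and 0.35 and a range of −0.63 to 0.63. The median over all genes tested was −0.13, which is 0.43 lower. All genes tested were not matched to the level of the members, here or in the shares above. With a minimum of 100 counts the members' median was 0.24 and that of all genes −0.05, a gap of 0.29. The large subunit members had a median of 0.31 and the small subunit members a median of 0.29. The median standard error of a member, 0.20, was close to these changes. Without DMSO replicate 1 the members' median fell to 0.17 and that of all genes was −0.03, and 71 of 76 members remained above 0. When libraries were scaled by their totals only, the members' median was 0.50 and that of all genes 0.08.

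**Figure D2:**
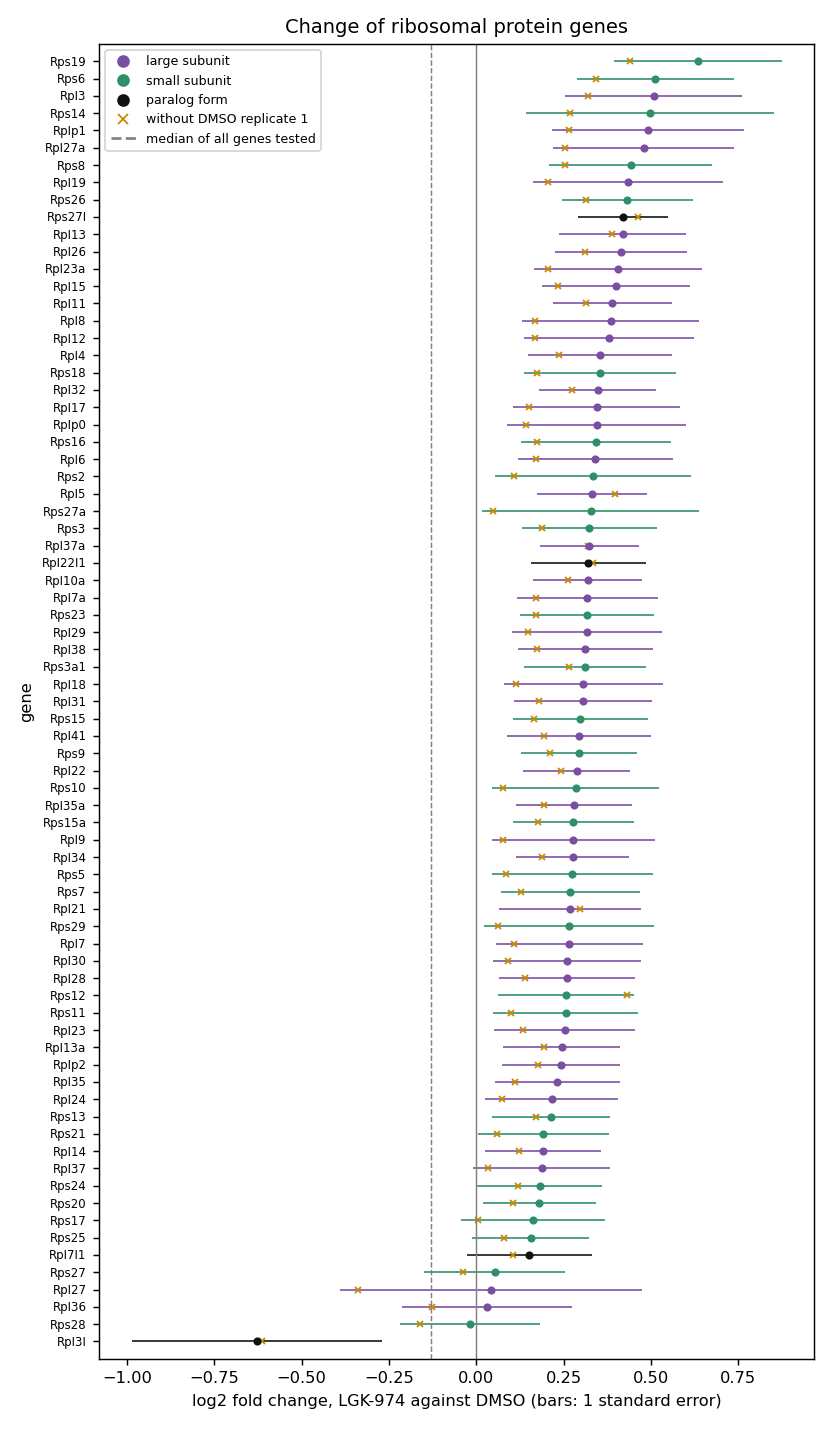
Log2 fold change of 75 of the 76 ribosomal protein genes tested, LGK-974 against DMSO, with bars of 1 standard error; crosses give the value without DMSO replicate 1 and the dashed line the median of all genes tested at −0.13. Values run from −0.63 (Rpl3l) to 0.63 (Rps19), all shown except Rps28 and Rpl3l lie above 0, and most crosses lie nearer to 0 than the points.

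Rps19, a small subunit protein needed for maturation of the small subunit's ribosomal RNA, had the highest fitted change. Its levels were 74.9, 62.2 and 82.0 CPM with LGK-974 and 31.9, 55.3 and 53.9 CPM with DMSO. The groups did not overlap, with means of 73.1 ± 10.04 (SD, n = 3) and 47.1 ± 13.1 CPM (SD, n = 3). The log2 fold change was 0.63 with a standard error of 0.240 and an unadjusted p of 0.0304 (adjusted p = 0.368, edgeR's quasi-likelihood test). Of its counts, 57.6% lay on protein-coding transcripts, and on these alone the log2 fold change was 0.47 with an unadjusted p of 0.112. Without DMSO replicate 1 the log2 fold change of Rps19 was 0.44. Rps6, the protein of the small subunit that S6 kinases phosphorylate, followed with 208, 195 and 192 CPM against 98.9, 168 and 150 CPM. The lowest LGK-974 library was above the highest DMSO library, and the log2 fold change was 0.51 with a standard error of 0.225, or 0.34 without DMSO replicate 1.

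Rps27l had the smallest p of all members. This paralog of Rps27, known as a target of p53, was measured at 29.7, 31.9 and 30.2 CPM with LGK-974 and at 23.5, 23.0 and 22.03 CPM with DMSO. DMSO replicate 1 was the highest of its group here, and the groups did not overlap. The log2 fold change was 0.42 with a standard error of 0.129 and an unadjusted p of 0.0119 (adjusted p = 0.368, edgeR's quasi-likelihood test). It was 0.44 to 0.51 when each library was left out in turn. Of its counts, 58.2% lay on protein-coding transcripts, and on these alone the log2 fold change was 0.34 with an unadjusted p of 0.0570, which was no longer the smallest among the members.

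The next smallest unadjusted p-values were those of Rps26 (0.0505), Rpl13 (0.0507) and Rpl11 (0.0520), with log2 fold changes of 0.43, 0.42 and 0.39 from edgeR's quasi-likelihood test. Rpl11, which binds the small ribosomal RNA of the large subunit together with Rpl5 and can hold the p53 regulator Mdm2, had 144, 154 and 158 CPM with LGK-974. With DMSO it had 99.7, 129 and 118 CPM, all below the LGK-974 libraries, and without DMSO replicate 1 its change was 0.31. Its partner Rpl5 had 126, 115 and 127 CPM against 103, 102 and 87.3 CPM, and in it the lowest DMSO library was replicate 3. Rpl5 did not overlap either, with a log2 fold change of 0.33.

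Rpl27a, a large subunit protein, had 110, 107 and 128 CPM with LGK-974 and 52.1, 98.7 and 96.9 CPM with DMSO, with no overlap and a log2 fold change of 0.48. Without DMSO replicate 1 this fell to 0.25. Rps14, a small subunit protein whose loss in a human deletion syndrome impairs red cell formation, had few counts and a wide spread. It had 9.62, 18.5 and 22.1 CPM against 7.49, 14.2 and 13.9 CPM, and the groups overlapped at a log2 fold change of 0.50. This was 0.27 without DMSO replicate 1, 0.29 without LGK-974 replicate 3 and 0.78 without LGK-974 replicate 1.

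The proteins of the P-stalk recruit the elongation factors to the ribosome. Rplp0, the base of the stalk, had 264, 284 and 321 CPM with LGK-974 and 152, 277 and 256 CPM with DMSO. Rplp1 had 115, 124 and 155 CPM against 58.5, 115 and 106 CPM. Rplp2 had 111, 129 and 135 CPM against 92.6, 114 and 110 CPM. In all 3 genes the groups overlapped because DMSO replicate 2 was at or above the lowest LGK-974 library. Their log2 fold changes were 0.34, 0.49 and 0.24, and 0.14, 0.26 and 0.18 without DMSO replicate 1.

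At the lower end of the order, 5 members had a log2 fold change between −0.02 and 0.15 and no separation of the groups. Rps28 was at 82.8, 73.7 and 89.1 CPM with LGK-974 and 62.8, 94.9 and 90.9 CPM with DMSO, with a log2 fold change of −0.02. Its exons share 88 bases with Kank3 on the opposite strand. Rpl36, at 0.03, and Rps27, at 0.05, changed sign between ways of counting. Rpl27 had 32.5, 37.7 and 35.97 CPM against 12.2, 45.9 and 44.8 CPM. In Rpl27 the LGK-974 libraries lay between DMSO replicate 1 and the other 2 DMSO libraries, and its log2 fold change of 0.04 became −0.34 without DMSO replicate 1. Rpl7l1, a paralog of Rpl7, was at 0.15.

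Per length, the members spread widely. Mean TPM (scaled to transcript length and library) over the 6 libraries ran from 8.40 to 835, with a median of 198 among the members tested. The highest were Rpl36 (835 TPM), Rps24 (788 TPM), Rpl13 (650 TPM), Rpl38 (595 TPM) and Rpl28 (563 TPM). The lowest were Rpl7l1 (8.40 TPM), Rpl12 (16.2 TPM), Rpl3l (29.97 TPM), Rps20 (34.2 TPM) and Rpl22l1 (34.3 TPM). Rpl12 is a general member, and 39.3% of its counts lay on protein-coding transcripts. In 6 members this share was under 60%. Summed over the members, protein-coding transcripts held 93.4 to 94.7% of counts with LGK-974 and 92.3 to 94.9% with DMSO. Transcripts with a retained intron held 2.53 to 3.47% and 2.22 to 3.86%, the highest in DMSO replicate 1, and the groups overlapped.

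Rpl3l departed from the other members. The gene lies at chr17:24727820-24736143 on the plus strand of GRCm38, and shares no exon bases with any other annotated gene. Rpl3l had 20.7, 45.6 and 18.8 CPM with LGK-974 and 44.1, 33.4 and 53.9 CPM with DMSO. LGK-974 replicates 1 and 3 lay below all DMSO libraries, whereas LGK-974 replicate 2 lay above 2 of them. The means were 28.4 ± 14.97 (SD, n = 3) and 43.8 ± 10.3 CPM (SD, n = 3). The log2 fold change was −0.63 with a standard error of 0.358, which did not pass the test (adjusted p = 0.417, edgeR's quasi-likelihood test). It ranged from −1.09 to −0.33 when each library was left out, and −1.09 was the value without LGK-974 replicate 2. Without DMSO replicate 1 it was −0.61.

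Rpl3, the general form, lies at chr15:80077791-80091868 on the minus strand. Rpl3 had 71.5, 59.1 and 89.5 CPM with LGK-974 and 35.5, 62.0 and 57.3 CPM with DMSO. LGK-974 replicate 2 lay below DMSO replicate 2, so that the groups overlapped. The log2 fold change of Rpl3 was 0.51 with a standard error of 0.254 (adjusted p = 0.380, edgeR's quasi-likelihood test), or 0.32 without DMSO replicate 1.

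Within a library the ratio of the paralogs does not depend on the scaling of libraries. By TPM, Rpl3l made up 24.1%, 41.5% and 17.8% of the pair with LGK-974 and 57.1%, 35.4% and 47.2% with DMSO. In DMSO replicate 1, Rpl3l was at 28.1 TPM and Rpl3 at 21.1 TPM, the only library in which the muscle form was the higher. In LGK-974 replicate 3, Rpl3l was at 28.0 TPM and Rpl3 at 129 TPM. The mean share was 27.8% ± 12.3 (SD, n = 3) and 46.6% ± 10.8 (SD, n = 3). On the log2 scale the ratio of Rpl3l to Rpl3 differed by −1.25, with p = 0.2 in an exact two-sided permutation test over 20 assignments, and adjusted to 0.267 over 4 pairs of paralogs. With 3 libraries against 3 this test cannot give a p below 0.1. The difference kept its sign when each library was left out, from −1.73 to −0.87.

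**Figure D3:**
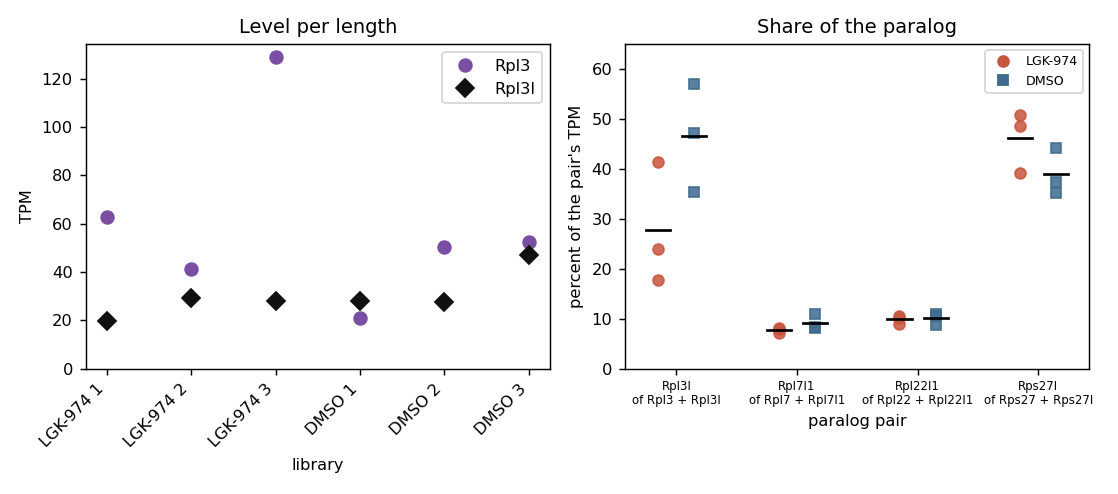
Left, TPM of Rpl3 (circles) and Rpl3l (diamonds) in each library. Right, share of the paralog in the TPM of each of 4 pairs, with points for libraries and bars for group means; for Rpl3l the means are 27.8% with LGK-974 and 46.6% with DMSO and the groups overlap, as they do in the other pairs.

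In the other pairs the groups overlapped too. Rps27l made up 50.7%, 48.6% and 39.2% of its pair with Rps27 under LGK-974 and 44.2%, 37.3% and 35.2% under DMSO (difference of the log2 ratio 0.43, exact p = 0.2). The log2 ratio of Rpl7l1 to Rpl7 differed by −0.25 (exact p = 0.2) and that of Rpl22l1 to Rpl22 by −0.02 (exact p = 0.8). Rpl22l1 itself, at 15.3, 14.2 and 12.1 CPM against 10.96, 11.98 and 10.4 CPM, did not overlap and had a log2 fold change of 0.32, near that of Rpl22 at 0.29. The germ cell paralogs had too few counts to be tested. Rpl10l had 0 counts in each LGK-974 library and 21, 7 and 0 with DMSO. Rpl39l had 8, 0 and 0 with LGK-974 and 25, 4 and 0 with DMSO. In both, the highest count was in DMSO replicate 1.

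Across the 6 libraries most members followed the same profile. The median Pearson r of log2 CPM between members was 0.86 over 2850 pairs, and 53 of 76 members had an r above 0.9 to the members' median profile. These are descriptions over 6 points that share their libraries, and most members were lowest in DMSO replicate 1. The lowest r was that of Rpl3l, at −0.51, followed by Rps12 at −0.03. Among the 20094 genes tested, the 5 whose log2 CPM was most like that of Rpl3l were Ndufs7 (r = 0.996), Lrpprc (0.993), Atp5k (0.993), Mreg (0.992) and Enpp2 (0.990), over 6 libraries. For Rpl3 the 5 most alike reached r of 0.995 to 0.998, so values this high are not particular to Rpl3l. Ndufs7 and Atp5k encode subunits of the respiratory chain and of the mitochondrial ATP synthase, and Lrpprc binds mitochondrial mRNAs. The median r of Rpl3l was 0.83 with the 15 cardiomyocyte markers, −0.75 with the 15 leukocyte markers and −0.48 with the other 75 members. For Rpl3 the median r was −0.36 with the cardiomyocyte markers, 0.85 with the leukocyte markers and 0.89 with the other members.

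Ribosomal protein genes have many processed pseudogenes, and Kallisto divides reads between near-identical transcripts. Pseudogenes named after a member numbered 277, and 55 members had at least 1. Their counts came to 3.40%, 2.42% and 3.26% of the members' own counts with LGK-974 and to 6.69%, 2.499% and 2.14% with DMSO. In 47 of the 55 members this share was highest in DMSO replicate 1. For Rps12 the pseudogenes, mainly Rps12-ps3, took 84.2 to 116% of the gene's own counts. For Rpl19 the share was 19.9%, 9.38% and 15.6% with LGK-974 and 70.9%, 3.58% and 4.64% with DMSO. Rpl27 gave 19.3%, 4.203% and 13.7% against 56.2%, 2.03% and 1.77%. The pseudogene Rps6-ps4 held 1528 counts in DMSO replicate 1 and 0 in each of the other 5 libraries.

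The values of these members are therefore uncertain. Adding the pseudogenes to their gene moved the log2 fold change of Rps6 from 0.51 to 0.38, that of Rpl19 from 0.43 to 0.40 and that of Rps12 from 0.26 to 0.33, while Rpl27 moved from 0.04 to 0.09. The share of nuclear counts with pseudogenes added was 1.90%, 1.77% and 2.004% against 0.927%, 1.56% and 1.55%, again without overlap. In addition, 22 members share exon bases with another annotated gene other than a small RNA, on the opposite strand in 19. In 4 members the other gene lies on the same strand: Rpl24 (Gm28037, 484 of 1030 exon bases), Rpl13a (Gm45713), Rps10 (RPS10-NUDT3) and Rpl19 (Gm11629, 36 bases).

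**Figure D4:**
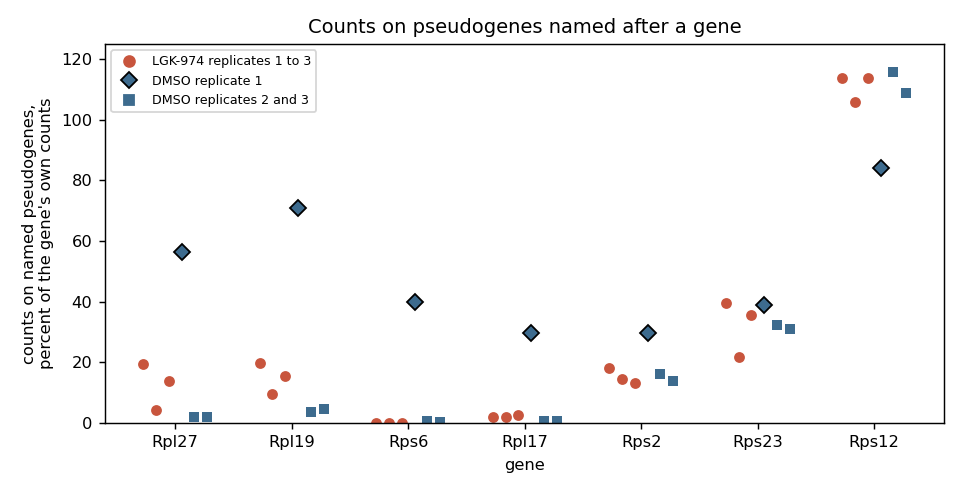
Counts on pseudogenes named after a gene, as a percent of that gene's own counts, in each library for 7 members. Diamonds mark DMSO replicate 1, which stands at 56.2% for Rpl27, 70.9% for Rpl19 and 39.8% for Rps6, above the other libraries, whereas Rps12 has between 84.2 and 116% in every library.

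Further ribosomal proteins, whose symbols the pattern leaves out, were set beside the members. Rack1, a scaffold on the small subunit, had 143, 142 and 166 CPM with LGK-974 and 78.1, 127 and 107 CPM with DMSO. Its groups did not overlap, and the log2 fold change was 0.53 with an unadjusted p of 0.0386 (adjusted p = 0.368, edgeR's quasi-likelihood test). Rpl36al had a log2 fold change of 0.44 (unadjusted p = 0.0200), Rpsa one of 0.54 and Fau one of 0.52. Rps27a, which the pattern includes and which is one of the members, is the small subunit protein made as a ubiquitin fusion. It was at 0.33 with overlap, and at 0.05 without DMSO replicate 1.

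Genes around the ribosome were less uniform. Of 18 elongation factors and other mRNAs known for the pyrimidine tract, 6 were higher at an unadjusted p under 0.05 and 0 lower, with a median log2 fold change of 0.21. The smallest p-values were those of Vim (0.80), an intermediate filament, Pabpc1 (0.63), the poly(A) binding protein, and Hnrnpa1 (0.50), with log2 fold changes in brackets. Of 46 factors of ribosome assembly, 13 were higher and 1 lower, with a median of 0.27, and Nop56 (0.55), Nhp2 (0.60) and Rrp12 (0.53) had the smallest p. Of 24 subunits of initiation factors, 3 (Eif2s1, Eif4a1 and Eif3d) were higher and 0 lower, with a median of 0.10. Of 14 genes of RNA polymerase I tested, 0 passed in either direction, with a median of 0.15, and of 18 regulators of ribosomal protein synthesis 0 passed, with a median of 0.09. Over all genes tested, 6.26% were higher and 7.18% lower at the same threshold, and the median was −0.13. In these lists 0 genes passed after adjustment in edgeR's quasi-likelihood test, as did 0% of all genes.

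The mitochondrial ribosome did not share the direction. Of its 78 genes tested, 1 was higher (Mrpl19, 0.41) and 1 lower (Mrps35, −0.63) at an unadjusted p under 0.05, against 6.26% and 7.18% of all genes. The median log2 fold change was −0.04, and 31 of 78 were above 0, against 40.5% of all genes.

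The medians of the leukocyte and fibroblast markers lay above 0, as that of the members did, and those of the other marker lists were near or below 0. Over all genes tested, 6.26% were higher and 7.18% lower at an unadjusted p under 0.05. In 10.7% every LGK-974 library lay above every DMSO library, and the median was −0.13. Of 15 leukocyte markers, 14 were higher at an unadjusted p under 0.05 and 0 lower, with a median log2 fold change of 0.96, and 14 did not overlap. Their summed level was 482, 324 and 918 TPM with LGK-974 and 141, 261 and 258 TPM with DMSO. Of 12 fibroblast markers, 6 were higher and 0 lower, with a median of 0.59, and their sum was 898 to 3055 TPM against 454 to 894 TPM. Of 15 cardiomyocyte markers, 1 was higher (Actc1, 0.86) and 1 lower (Tcap, −0.73), with a median of −0.44, and 12 endothelial markers had 0 in either direction and a median of 0.02. Of 7 neutrophil markers tested, 1 was higher (Clec4d) and 1 lower (Cxcr2), with a median of −0.05. None of the leukocyte, fibroblast, cardiomyocyte or endothelial markers was too low to be tested. Without DMSO replicate 1, the median was 0.82 for the leukocyte and 0.45 for the fibroblast markers, beside 0.17 for the members. The part of these cells in the higher level of the ribosomal protein genes was not tested.

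**Figure D5:**
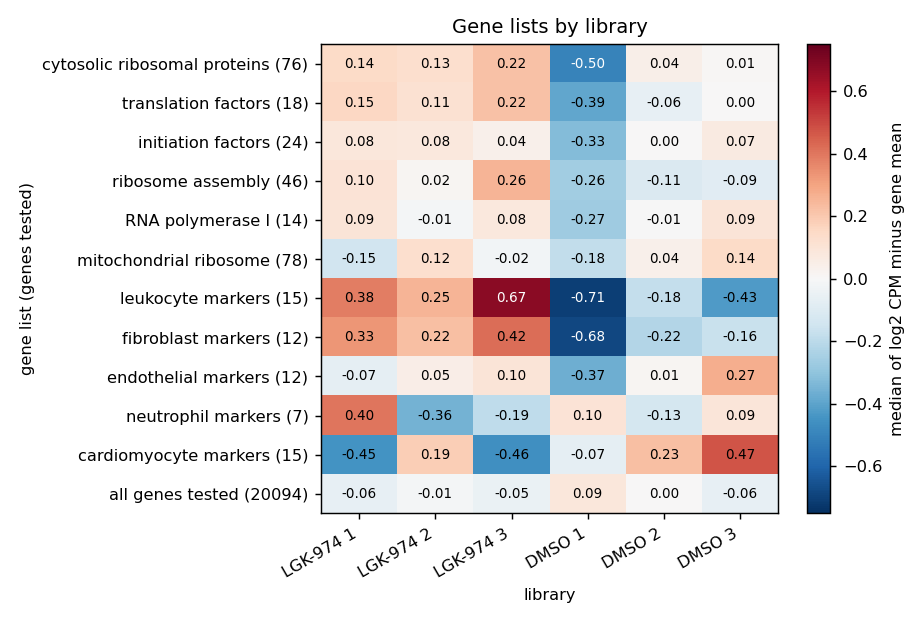
Median of log2 CPM minus the gene's mean over 6 libraries for each gene list (rows, with the number of genes tested) and library (columns); red is higher and blue lower. DMSO replicate 1 has the lowest value for the ribosomal protein genes (−0.50) and for the leukocyte (−0.71), fibroblast (−0.68) and endothelial markers (−0.37). It is also lowest for the translation factors (−0.39), initiation factors (−0.33), ribosome assembly (−0.26), RNA polymerase I (−0.27) and the mitochondrial ribosome (−0.18). The cardiomyocyte markers are lowest in LGK-974 replicates 1 (−0.45) and 3 (−0.46), the libraries in which Rpl3l was lowest.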

How the data were processed

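RNA of the infarct area from 6 mice was sequenced, and the labels gave the groups and replicate numbers. The authors quantified transcripts with Kallisto on GRCm38 and deposited 118489 transcripts per library with estimated counts and TPM values; trimming and the program's version are not given in the sources used here. The methods name both RiboZero depletion and the RNA Access capture kit. Estimated counts were joined to GENCODE M21 genes (98.6% of transcripts), summed per gene and rounded. Reads divided between paralogs or pseudogenes stay divided.

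A minimum of 10 counts in 3 or more libraries was set, and edgeR's quasi-likelihood test was run (version 4.0.16 on R 4.3.3; TMM, treatment only, Benjamini-Hochberg, threshold 0.05). In simulated data of this comparison, 200 of 20094 genes were changed by 2 on the log2 scale. The edgeR test recovered 63% of them, with 6 false among 132 called. Recovery at sizes near the members' median of 0.30 was not tested. Standard errors are from the edgeR fit of the measured counts. Centred levels are log2(CPM + 0.5) less the mean over libraries. DESeq2 1.42.0 and limma-voom (limma 3.58.1) were alternatives, as were other scalings, filters, counting units, a replicate block and leaving out each library. A fit without DMSO replicate 1 and chromosome MT, and the counts of members higher or lower than DMSO replicates 2 and 3, were added after seeing the data. Values were tabulated in Python 3.11.15 (pandas 2.3.3, NumPy 2.4.6, SciPy 1.17.1) and drawn with matplotlib 3.10.9.

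Members and lists were chosen with earlier results of these data known, and the mitochondrial ribosome list was added after the files were read. Named were Rpl3, Rpl3l and other paralogs with their general forms, the P-stalk, the 6 highest and 6 lowest changes, the 5 smallest p-values, the 5 highest and 5 lowest by TPM, ribosomal proteins the pattern leaves out, and up to 3 genes per further list; some of these are not reported here. Rpl5, Rpl19, Rpl21, Rps12, Rps27a, Rpl13a, Rpl24 and Rps10 were named after their values were seen. Each group had 3 animals.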

Additional observations from a re-analysis of the deposited data

How the results depend on the processing

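The ribosomal protein genes called stayed at 0 under all 19 alternatives, their median log2 fold change ran from 0.17 to 0.50, and the count above 0 from 71 to 75. Leaving out each library gave medians of 0.17 to 0.47, the lowest without DMSO replicate 1. Members at an unadjusted p under 0.05 numbered 1 to 11. Over all genes, 1206 were called without a filter on low counts, 289 with DESeq2, also run without that filter, and 2 without DMSO replicate 1, against 0.

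Changes close to 0 changed sign. Rps28 was at 0.00258 with DESeq2 size factors in edgeR, 0.20 with library totals only, 0.11 without a filter, 0.00181 with the replicate block, 0.0105 with DESeq2 and 0.00202 with limma-voom. At a minimum of 100 counts Rpl36 was at −0.0268 and Rps27 at −0.0157. On protein-coding transcripts only they were at −0.0354 and −0.0907. Without DMSO replicate 1 and chromosome MT, an alternative chosen after seeing the data, Rpl27 was at −0.34, Rpl36 at −0.13 and Rps27 at −0.0372. Leaving out each library gave ranges of −0.34 to 0.36 for Rpl27, −0.13 to 0.31 for Rpl36, −0.0748 to 0.22 for Rps27 and −0.16 to 0.16 for Rps28. The cause was not tested.

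Same-numbered libraries of the groups deviated together with correlations of 0.475, −0.0482 and 0.391, so the numbers were not taken to pair the animals. With the replicate number as a block, 0 members were called, 4 had an unadjusted p under 0.05, the median was 0.32 and Rpl3l was at −0.73. The block changed no call. Rpl10l and Rpl39l did not reach the count minimum and were not tested with it.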
